A study of Homo sapiens and Mus musculus with 27 samples.

Results

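The genes described here encode 10 LIM proteins of the actin cytoskeleton: PDLIM1, PDLIM2, PDLIM3, PDLIM4, PDLIM5 and PDLIM7, FHL1 and FHL2, and CSRP1 and CSRP2. They were taken by name from the count tables, ignoring case, and all 10 were found among 59453 human and 55367 mouse gene names. Messenger RNA was measured in 27 libraries from 3 experiments, each with 3 groups of 3 replicates. In the first, cells of LM2, a human line derived from the breast cancer line MDA-MB-231 for growth in lung, carried caMKL1, carried MKL1 or were controls. In the second, 4T1 cells, a mouse mammary carcinoma line, carried the same constructs or were controls. In the third, LM2 cells were negative for LifeAct, a peptide tag that binds filamentous actin, or expressed it at a low or a high level.

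The labels call both constructs overexpressed (OE) and give the MKL1 group as WT MKL1. The 3 replicates with caMKL1 bear the genotype names caMKL1, caMKL2 and caMKL3 in each line, although their titles and treatments all read caMKL1. All other libraries carry the genotype label WT, and those negative for LifeAct the treatment label control. Construct sequences, promoters and numbers of clones are not stated, and no label says that replicates were separate cultures, so p-values measure only the spread between these samples. The LifeAct experiment used depletion of ribosomal RNA where the others used polyA selection, so levels are compared within an experiment.

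A LIM domain is a zinc-binding module that docks other proteins. PDLIM proteins join a PDZ domain, which binds alpha-actinin, to LIM domains and sit on stress fibres and Z-discs, FHL proteins are built of LIM domains only, and CSRP proteins carry glycine-rich LIM domains that bind alpha-actinin and zyxin. MKL1, the product of the gene MRTFA, is held by monomeric actin and otherwise enters the nucleus, where it acts with the transcription factor SRF on CArG boxes in genes of the contractile cytoskeleton.

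Total counts ran from 22147429 to 32147377 per LM2 library, 21896459 to 29370432 per 4T1 library and 15581289 to 23678322 per LifeAct library. MRTFA itself averaged 218 ± 41.5 CPM in LM2 caMKL1, 162 ± 20.3 in LM2 MKL1 and 10.8 ± 0.641 in LM2 control libraries (SD, n = 3 each; CPM, counts scaled by TMM to a common library size). In 4T1 it averaged 624 ± 47.4 CPM with caMKL1, 2145 ± 56.2 with MKL1 and 39.2 ± 2.28 in controls, and LifeAct negative, low and high libraries had 28.3, 33.6 and 40.9 CPM. Replicate 1 of LM2 caMKL1 and of LM2 MKL1 stood apart from the other replicates of its group (chi-square per gene against them 35.5 to 49.9). Replicates 2 and 3 gave 3.03 against each other with caMKL1, but 20.6 with MKL1, so the MKL1 group was spread throughout. Mitochondrial shares of replicates 1, 2 and 3 were 7.76%, 13.4% and 13.6% with caMKL1 and 6.18%, 9.9% and 7.11% with MKL1. The epithelial marker list fixed for carcinoma cells summed to at least 350.6 CPM in every library, and the leukocyte list to at most 3.30 CPM. CDH1 of the epithelial list averaged at most 0.471 CPM in LM2 groups and 0.252 in LifeAct groups, and 670 to 1001 CPM in 4T1 groups. In LM2 cells the sum is thus that of keratins and EPCAM. The mesenchymal list (VIM, CD44 and FN1) summed to at least 2207 CPM in every library.

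RefSeq promoter windows ran from 250 bases before to 50 after a gene's start (GRCh38.p14, 300 in all). The 26 windows used belong to 9 of the 10 human genes. No window of PDLIM2 was searched, so its promoter is left undescribed. The 26 windows were searched on both strands for the CArG box, by its name the SRF site. MCAT (GGAATG), the TEAD site, and the AP-1 site (TGANTCA) were searched in the same way, and no match overlapped another motif. The CArG box lay in 1.29% of 35116 windows of all genes and in 4 of the 26 windows here. Among the 9 genes searched, these 4 belong to FHL2 and FHL1 only, against 1.6% of 27305 genes with the box in any window. FHL1 holds 12 of the 26 windows, FHL2 4, CSRP1 3, CSRP2 2 and the other genes 1 each, so the genes were not searched equally. Shown are the 3 distinct CArG windows and, for contrast, a window of CSRP1, the gene with the largest rise in LM2 caMKL1 cells among the 10. Capitals mark the CArG box, which starts 59 bases before the start in the first FHL2 window (chr2:105399002-105399301, minus strand), 101 before it in the second (chr2:105438464-105438763, minus strand) and 126 before it in the FHL1 window (chrX:136196797-136197096, plus strand). The CSRP1 window (chr1:201507074-201507373, minus strand) holds none of the 3 motifs. Each is written 5′ to 3′ on the gene's strand.
FHL2, first window: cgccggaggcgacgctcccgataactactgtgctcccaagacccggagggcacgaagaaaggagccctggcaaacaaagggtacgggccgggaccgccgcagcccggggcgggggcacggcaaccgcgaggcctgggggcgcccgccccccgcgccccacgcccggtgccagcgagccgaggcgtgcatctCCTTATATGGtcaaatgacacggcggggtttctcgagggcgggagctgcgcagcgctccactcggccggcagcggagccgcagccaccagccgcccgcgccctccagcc
FHL2, second window: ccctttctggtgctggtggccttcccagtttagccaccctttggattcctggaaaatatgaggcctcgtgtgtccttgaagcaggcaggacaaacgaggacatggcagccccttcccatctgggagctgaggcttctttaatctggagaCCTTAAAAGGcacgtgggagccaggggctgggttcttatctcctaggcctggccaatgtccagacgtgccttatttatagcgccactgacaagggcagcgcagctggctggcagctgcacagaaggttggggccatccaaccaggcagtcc
FHL1: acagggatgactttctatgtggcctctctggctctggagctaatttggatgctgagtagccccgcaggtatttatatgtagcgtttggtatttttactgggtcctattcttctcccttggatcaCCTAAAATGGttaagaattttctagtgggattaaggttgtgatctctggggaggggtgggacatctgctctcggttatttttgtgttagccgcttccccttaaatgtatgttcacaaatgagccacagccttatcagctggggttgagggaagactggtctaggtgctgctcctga
CSRP1: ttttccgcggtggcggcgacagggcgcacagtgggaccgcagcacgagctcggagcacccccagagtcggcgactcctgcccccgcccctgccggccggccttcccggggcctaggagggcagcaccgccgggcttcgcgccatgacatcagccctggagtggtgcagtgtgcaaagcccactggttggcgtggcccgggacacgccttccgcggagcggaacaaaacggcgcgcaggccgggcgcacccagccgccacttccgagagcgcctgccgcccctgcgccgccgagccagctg
The CArG boxes read CCTTATATGG and CCTTAAAAGG in FHL2 and CCTAAAATGG in FHL1, and the second FHL2 box lies in 2 overlapping windows. MCAT lay in 14% of all windows and in 1 window each of FHL1, FHL2 and CSRP1, and AP-1 in 7.71% of all windows and in 2 overlapping windows of FHL1. A match describes letters in a window and shows no binding.

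In LM2 cells carrying caMKL1, 7 of the 10 genes rose and 3 fell relative to control, against 64.9% of 18893 tested genes called in either direction (31.9% higher, 33% lower). CSRP1, PDLIM5, PDLIM3, PDLIM7, PDLIM4, FHL2 and CSRP2 were higher, and PDLIM2, FHL1 and PDLIM1 were lower. The median log2 ratio of the 10 was 1.75, where that of all tested genes was -0.05. With MKL1, 3 genes rose (PDLIM7, FHL2 and PDLIM5), 1 fell (FHL1) and 6 did not pass, against 12% of all tested genes called (7.25% higher, 4.74% lower), and the medians were 0.27 for the 10 and 0.01 for all genes. The count of all called genes in that comparison, 2265, was 1266, 1243 or 1106 without control replicate 1, 2 or 3. In 4T1 cells carrying caMKL1, 9 rose and 1 fell, against 72% called (36.2% higher, 35.8% lower), and with MKL1, 8 rose, none fell and 2 did not pass, against 34.3% called (19.3% higher, 15% lower).

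All 10 genes passed the filter on low counts in each experiment, yet in 4T1 Pdlim3 and Fhl1 passed only through caMKL1 and MKL1 libraries, and Pdlim4 only through caMKL1 libraries. These 3 had to differ between those libraries and the controls, and they add no support to any 4T1 count. Without them the 4T1 calls with caMKL1 are those of Pdlim1, Pdlim5, Pdlim7, Fhl2, Csrp1 and Csrp2, higher, and Pdlim2, lower. With MKL1 they are then those of Pdlim1, Pdlim2, Pdlim5, Pdlim7, Fhl2 and Csrp1, all higher, and Csrp2 did not pass. In LifeAct high cells 5 genes rose and 5 fell relative to negative cells, against 71.1% of 21869 tested genes called (36% higher, 35.2% lower). In LifeAct low cells 1 rose, 5 fell and 4 did not pass, against 49.6% called (26% higher, 23.6% lower). The medians of the 10 genes were -0.11 in high and -0.19 in low cells, and those of all genes -0.03 and -0.01. The caMKL1 and MKL1 comparisons share controls, as do those of high and low LifeAct, so their calls are given side by side and not counted together. Tests are edgeR's quasi-likelihood F test with Benjamini-Hochberg adjustment over all tested genes and a threshold of 0.05.

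**Figure D1:**
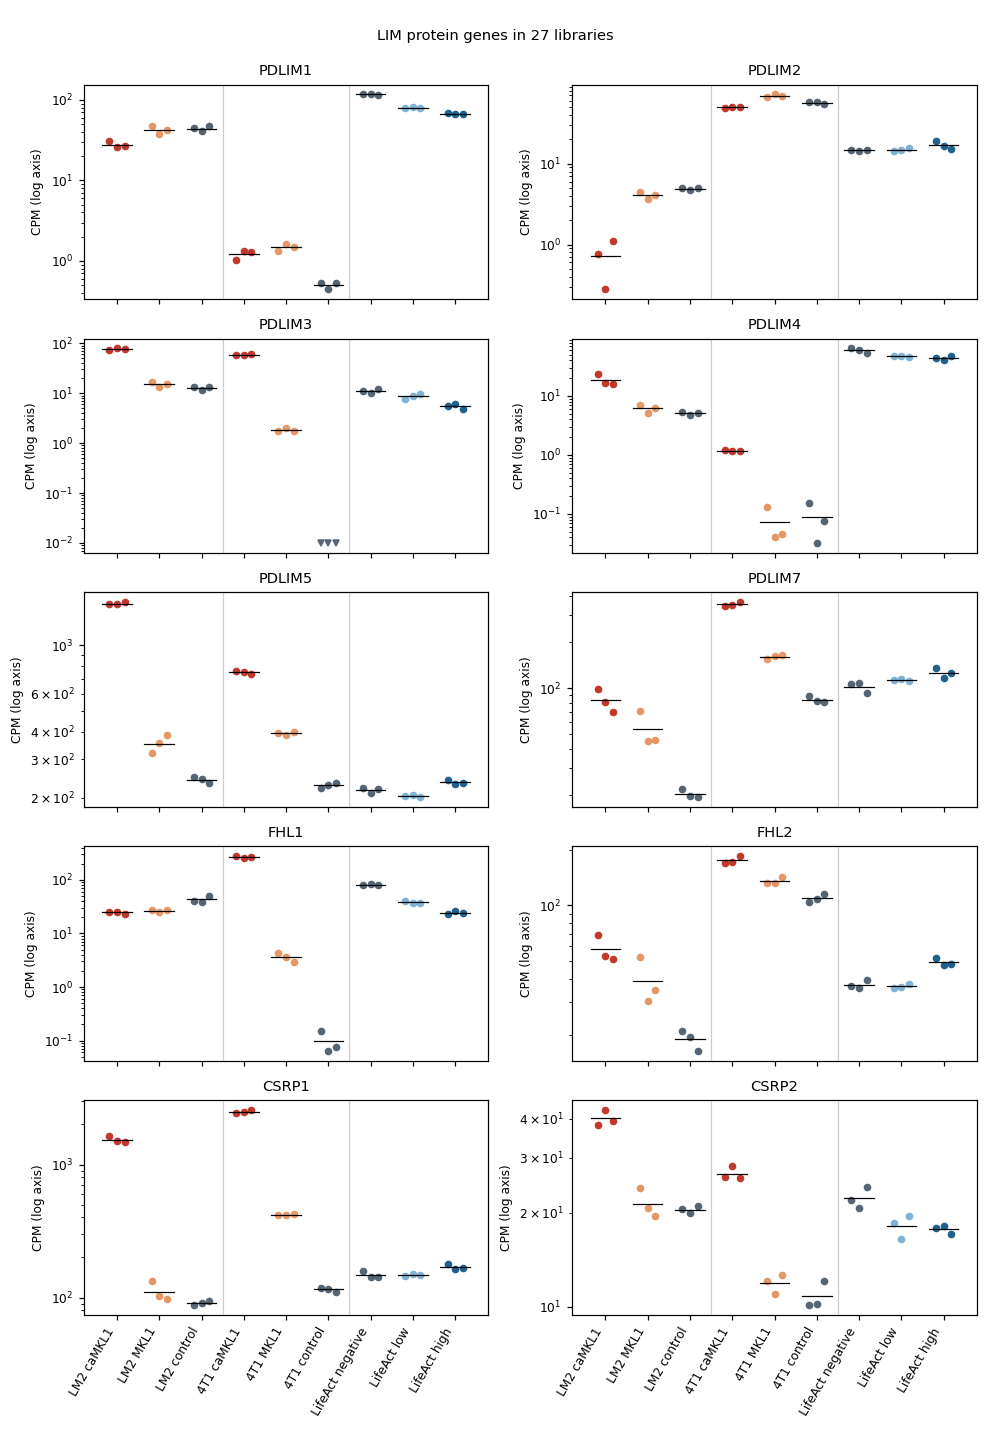
Level of each gene in CPM on a log axis, 1 point per library and a line at the mean of 3, for the 3 groups of LM2, 4T1 and LifeAct cells; triangles mark libraries with a count of 0. FHL1 sits at 251 to 276 CPM in 4T1 caMKL1 and at or under 0.153 CPM in 4T1 control libraries, while in LifeAct cells its level is lower at each step of LifeAct expression.

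PDLIM1 (CLP36; chr10:95237572-95291012, GRCh38, minus strand) is an alpha-actinin-binding protein of stress fibres. In LM2 it had 30.6, 26.1 and 26.5 CPM with caMKL1, 47.4, 37.7 and 41.9 CPM with MKL1 and 44.2, 40.7 and 47.4 CPM in controls. All 3 caMKL1 libraries lay below the controls and the MKL1 libraries overlapped them. The gene fell by 0.67 with caMKL1 on the log2 scale (SE 0.11, adjusted p = 7.19e-05), and its log2 ratio with MKL1 was -0.06 (SE 0.11, adjusted p = 0.787). Mouse Pdlim1 was near the limit of detection in 4T1, with 23 to 36 counts per library with caMKL1, 31 to 40 with MKL1 and 14 in each control. It was 2.43-fold higher with caMKL1 (adjusted p = 0.00023) and 2.95-fold higher with MKL1 (adjusted p = 6.09e-05), in 3 of 3 libraries each. In LifeAct cells PDLIM1 averaged 117 ± 1.07 CPM in negative, 79.8 ± 1.80 in low and 67.7 ± 0.956 CPM in high libraries (SD, n = 3 each), with no overlap between neighbours. It fell by 0.55 in low (SE 0.045, adjusted p = 3.76e-11) and by 0.78 in high cells (SE 0.046, adjusted p = 5.56e-15) relative to negative cells, and by 0.23 in high relative to low cells (SE 0.047, adjusted p = 0.000117).

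PDLIM3 and PDLIM4 (ALP and RIL), relatives of PDLIM1 with a single LIM domain, are known from muscle Z-discs and from actin bundling. PDLIM3 (chr4:185500660-185535507, minus strand) had 75.0, 79.8 and 78.7 CPM in LM2 caMKL1, 17.0, 13.3 and 15.5 CPM in LM2 MKL1 and 13.3, 11.7 and 13.5 CPM in LM2 control libraries. It rose 6.07-fold with caMKL1 (log2 ratio 2.60, SE 0.11, adjusted p = 1.22e-11), and MKL1 libraries overlapped the controls (log2 ratio 0.26, adjusted p = 0.157). In 4T1 the mouse gene (chr8:45885461-45919548, GRCm38, plus strand) had 59.3, 57.2 and 60.8 CPM with caMKL1, 1.74, 2.01 and 1.78 CPM with MKL1 and no count in any control. Setting the control group at 3 counts, it was at least 1650-fold higher with caMKL1 and at least 51.7-fold higher with MKL1. The caMKL1 libraries exceeded MKL1 libraries 31.9-fold (log2 ratio 4.99, SE 0.090). Pdlim3 passed the filter only through caMKL1 and MKL1 libraries, so its tests against controls add no support and their p-values are left out. In LifeAct cells PDLIM3 went the other way: it averaged 11.2 ± 1.10 CPM in negative, 8.73 ± 0.980 in low and 5.56 ± 0.650 CPM in high libraries. It fell by 0.35 in low (SE 0.11, adjusted p = 0.011) and by 1.01 in high cells (SE 0.12, adjusted p = 2.40e-08) on the log2 scale. The fall in low cells lost its call without low replicate 1 (-0.27, adjusted p = 0.0808) or negative replicate 3 (-0.28, adjusted p = 0.0554).

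PDLIM4 (chr5:132257696-132273454, plus strand) had 23.4, 16.6 and 16.2 CPM in LM2 caMKL1, 7.11, 5.11 and 6.14 CPM in LM2 MKL1 and 5.36, 4.67 and 5.20 CPM in LM2 control libraries. It was 3.70-fold higher with caMKL1 (log2 ratio 1.89, SE 0.17, adjusted p = 1.03e-07), and with MKL1 its log2 ratio was 0.28 (adjusted p = 0.346). Mouse Pdlim4 was hardly detected in 4T1, with 27, 32 and 28 counts in caMKL1, 3, 1 and 1 in MKL1 and 4, 1 and 2 counts in control libraries. Its ratio was 13.3-fold with caMKL1 (log2 ratio 3.73, SE 0.45), and with MKL1 a log2 ratio of -0.21 had a 95% interval of -1.86 to 1.44. Pdlim4 passed the filter only through caMKL1 libraries, so its test with caMKL1 adds no support and the p-value is left out. In LifeAct cells it averaged 59.2 ± 5.22 CPM in negative, 46.7 ± 0.456 in low and 44.2 ± 3.05 CPM in high libraries. The log2 ratio fell by 0.34 in low (SE 0.064, adjusted p = 4.79e-05) and by 0.42 in high cells (SE 0.064, adjusted p = 1.34e-06), and low and high libraries overlapped.

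PDLIM5 and PDLIM7 (ENH and Enigma) carry a PDZ domain and a set of LIM domains, through which they tether protein kinases to the cytoskeleton. PDLIM5 (chr4:94451857-94668227, plus strand) had 1538, 1541 and 1574 CPM in LM2 caMKL1, 318, 355 and 387 CPM in LM2 MKL1 and 249, 242 and 232 CPM in LM2 control libraries. The 3 groups did not overlap, and the gene rose 6.44-fold with caMKL1 (log2 ratio 2.69, SE 0.10, adjusted p = 2.45e-12) and 1.47-fold with MKL1 (log2 ratio 0.55, SE 0.094, adjusted p = 0.00119). In 4T1 it averaged 751 ± 9.70 CPM with caMKL1, 395 ± 6.59 with MKL1 and 227 ± 5.89 CPM in controls (SD, n = 3 each). These are rises of 3.31-fold (adjusted p = 1.95e-24) and 1.74-fold (adjusted p = 1.06e-16). The steps in LifeAct cells were small, with 217 ± 5.66 CPM in negative, 203 ± 2.13 in low and 235 ± 5.54 CPM in high libraries. High cells exceeded negative cells 1.09-fold (log2 ratio 0.12, adjusted p = 0.00886, or 0.0637 without negative replicate 2). Low cells had a log2 ratio of -0.09 (adjusted p = 0.0529), and all low libraries lay below the negative ones. This ratio was called with limma voom (adjusted p = 0.0396), DESeq2 (0.0485) and DESeq2 size factors (0.0456). It was also called without high replicate 1 (0.0367) or negative replicate 2 (0.0471).

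PDLIM7 (chr5:177483394-177497606, minus strand) had 99.4, 81.0 and 69.7 CPM in LM2 caMKL1, 70.6, 45.5 and 45.9 CPM in LM2 MKL1 and 22.1, 19.8 and 19.5 CPM in LM2 control libraries. Every caMKL1 and MKL1 library lay above the controls, and the lowest caMKL1 library lay just below the highest MKL1 library. It rose 4.08-fold with caMKL1 (log2 ratio 2.03, SE 0.17, adjusted p = 2.72e-08) and 2.64-fold with MKL1 (log2 ratio 1.40, SE 0.16, adjusted p = 3.43e-05). With replicate 1 of both groups left out, the log2 ratios were 1.89 and 1.16. In 4T1, with 355 ± 9.94 CPM in caMKL1, 161 ± 3.99 in MKL1 and 84.2 ± 3.90 CPM in control libraries, it was 4.21-fold and 1.92-fold higher (adjusted p = 5.09e-24 and 6.66e-16). LifeAct negative, low and high libraries averaged 102.5 ± 8.60, 113 ± 2.04 and 126 ± 10.2 CPM. High cells exceeded negative cells 1.24-fold (log2 ratio 0.31, SE 0.057, adjusted p = 2.46e-05). The low cells' 1.11-fold ratio (adjusted p = 0.0341) lost its call without any 1 low library (adjusted p at most 0.105) or without negative replicate 3 (log2 ratio 0.08, adjusted p = 0.217), and DESeq2 gave an adjusted p of 0.0549.

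PDLIM2 (Mystique; chr8:22578279-22598025, plus strand) is an alpha-actinin-binding protein that also acts in the nucleus, where it promotes the breakdown of the NF-kappaB subunit p65. It was low in LM2, with 0.769, 0.282 and 1.09 CPM (20, 6 and 22 counts) in caMKL1, 4.44, 3.64 and 4.09 CPM in MKL1 and 4.95, 4.75 and 4.94 CPM in control libraries. The caMKL1 libraries lay far below the others, and the gene fell by 2.77 on the log2 scale (SE 0.29, adjusted p = 3.94e-07), the largest fall among the 10 genes in LM2. With MKL1 the log2 ratio was -0.26 (SE 0.22, adjusted p = 0.496). In 4T1 it averaged 50.2 ± 0.670 CPM with caMKL1, 69.0 ± 3.15 with MKL1 and 57.0 ± 2.08 CPM in controls. It was the gene that fell there with caMKL1 (by 0.18, SE 0.045, adjusted p = 0.00092) and rose with MKL1 (log2 ratio 0.28, SE 0.044, adjusted p = 2.08e-05). LifeAct high libraries had 19.2, 16.7 and 15.3 CPM, against 14.8, 14.6 and 14.8 CPM in negative libraries (log2 ratio 0.22, adjusted p = 0.0345). Without high replicate 1 the log2 ratio was 0.12 (adjusted p = 0.293), the call was also lost without negative replicate 1 or 2 (adjusted p = 0.0683 and 0.0826), and DESeq2 gave an adjusted p of 0.0613.

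FHL1 (SLIM1; chrX:136146702-136211359, plus strand) is a LIM-only protein of skeletal and cardiac muscle that also binds integrin-based adhesions. In LM2 it had 25.3, 25.0 and 23.5 CPM with caMKL1, 27.2, 24.7 and 27.3 CPM with MKL1 and 40.9, 39.3 and 49.3 CPM in controls. Both constructs put every library below every control, and they overlapped each other. It fell by 0.81 with caMKL1 (SE 0.11, adjusted p = 6.92e-06) and by 0.71 with MKL1 (SE 0.11, adjusted p = 0.000385) on the log2 scale, and caMKL1 against MKL1 was -0.10 (95% interval -0.33 to 0.13). Mouse Fhl1 (chrX:56731787-56793346, GRCm38, plus strand) did the opposite in 4T1, with 276, 251 and 264 CPM in caMKL1, 4.31, 3.62 and 2.88 CPM in MKL1 and 0.153, 0.0642 and 0.0753 CPM in control libraries. The controls together held 8 counts, the MKL1 libraries 252 and the caMKL1 libraries 19462. It rose 2624-fold with caMKL1 (log2 ratio 11.36, SE 0.11) and 36.1-fold with MKL1 (log2 ratio 5.17, SE 0.30). Fhl1 passed the filter only through caMKL1 and MKL1 libraries, so its tests against controls add no support and their p-values are left out.

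In LifeAct cells FHL1 had 78.9, 82.7 and 79.0 CPM in negative, 40.0, 37.5 and 37.4 CPM in low and 23.4, 25.7 and 23.7 CPM in high libraries. The steps did not overlap, and the gene fell by 1.07 in low (SE 0.057, adjusted p = 2.79e-15) and by 1.73 in high cells (SE 0.060, adjusted p = 2.80e-20) on the log2 scale, and by 0.66 in high relative to low cells (SE 0.063, adjusted p = 7.69e-10). It was the largest fall among the 10 genes in both LifeAct comparisons with negative cells.

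Some markers of other cell types moved with FHL1, and others did not. Of 5 markers of differentiated muscle, DES, MYH11 and CKM were tested in 4T1, only through libraries where they are high since their controls lay below the filter, and the list summed to 247 to 255 CPM with caMKL1, 3.79 to 5.53 with MKL1 and 0.417 to 0.573 CPM in controls. MYH11, smooth muscle myosin heavy chain, averaged 187 CPM in 4T1 caMKL1 libraries and CKM, muscle creatine kinase, 58.9 CPM, while MYOD1, the regulator that defines skeletal muscle, was at 0 in every group. In 4T1 cells 2 of 4 fibroblast markers were tested. Both fell with caMKL1, where Fhl1 rose (PDGFRB 0.135 CPM, against 1.53 in controls), and 1 rose with MKL1. In LM2 the muscle list summed to 1.65 to 2.73 CPM with caMKL1, 1.52 to 1.73 with MKL1 and 2.26 to 2.56 CPM in controls, with 1 of 5 tested and not passing. In LifeAct cells it summed to 19.9 to 22.3 CPM in negative, 12.6 to 13.7 in low and 6.42 to 7.62 CPM in high libraries, with 2 of 5 tested and both lower in high cells. The endothelial list of 3 genes fell there too, at 93.3 to 96.2, 33 to 34.3 and 11.8 to 13 CPM, through PECAM1 (92.5, 29.9 and 7.47 CPM), while KDR was higher in high cells (4.94 CPM, against 2.38 in negative cells) and CDH5 was at most 0.324 CPM. The fibroblast list of 4 genes summed to 23.9 to 26.0 CPM in negative, 16.2 to 17.7 in low and 11.8 to 13.2 CPM in high libraries. That sum followed PDGFRB, which was lower in high cells (9.15 CPM, against 24.2 in negative cells), while LUM was higher (3.09 CPM in high, against 0.913 in negative cells). In LM2 the endothelial list summed to 2.07 to 2.85 CPM with caMKL1, 4.59 to 7.02 with MKL1 and 6.25 to 8.60 CPM in controls, with 2 of 3 genes tested and both lower with caMKL1. PDGFRB averaged 1.57 CPM with caMKL1, 2.86 with MKL1 and 4.35 CPM in LM2 controls and fell with caMKL1, and the fibroblast list summed to 2.92 to 3.20, 3.42 to 5.23 and 5.68 to 7.66 CPM in these groups. The part of these markers in the changes of FHL1, PDLIM1, PDLIM2, PDLIM3, PDLIM4 and CSRP2 was not tested, and in bulk RNA fewer cells of a type and less RNA per cell cannot be told apart.

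FHL2 (DRAL; chr2:105357712-105438513, minus strand), a LIM-only co-regulator that binds integrins and travels to the nucleus, is a known target of MKL1 and SRF. It had 68.9, 53.3 and 51.4 CPM in LM2 caMKL1, 52.4, 30.3 and 35 CPM in LM2 MKL1 and 20.9, 19.3 and 16.3 CPM in LM2 control libraries. All treated libraries lay above the controls, with replicate 1 the highest in both treated groups. It rose 3.07-fold with caMKL1 (log2 ratio 1.62, SE 0.18, adjusted p = 8.11e-07) and 2.09-fold with MKL1 (log2 ratio 1.06, SE 0.18, adjusted p = 0.000956), and without replicate 1 of both groups the log2 ratios were 1.48 and 0.80. The 4T1 level was 176 ± 8.06 CPM with caMKL1, 136 ± 6.37 with MKL1 and 109 ± 5.47 CPM in controls, rises of 1.61-fold (adjusted p = 3.19e-13) and 1.25-fold (adjusted p = 2.06e-06). LifeAct negative, low and high libraries averaged 37.3 ± 1.85, 36.5 ± 0.863 and 49.3 ± 2.09 CPM. High cells stood 1.32-fold above negative cells (log2 ratio 0.41, SE 0.061, adjusted p = 1.06e-06), the largest rise among the 10 genes there, and low cells overlapped them (log2 ratio -0.03, adjusted p = 0.723). FHL2 and FHL1 are the genes whose CArG windows are printed above, and in LM2 one rose and the other fell.

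CSRP1 and CSRP2 (CRP1 and CRP2) are partners of alpha-actinin and zyxin that bundle actin and are abundant in smooth muscle. CSRP1 (chr1:201483530-201509456, minus strand) had 1635, 1508 and 1465 CPM in LM2 caMKL1, 132, 102.7 and 97.3 CPM in LM2 MKL1 and 88.0, 90.3 and 93.7 CPM in LM2 control libraries. It rose 16.9-fold with caMKL1 (log2 ratio 4.08, SE 0.13, adjusted p = 3.68e-13). MKL1 libraries lay above the controls without passing (log2 ratio 0.29, SE 0.11, adjusted p = 0.11). The ratio was called without the filter on low counts (0.34, adjusted p = 0.0118) and without MKL1 replicate 2 (adjusted p = 0.0496) or 3 (0.0477). Leaving out 1 library gave 0.14 to 0.39. Mouse Csrp1 (chr1:135720061-135752232, GRCm38, plus strand) had 2440, 2462 and 2560 CPM in 4T1 caMKL1, 418, 419 and 422 CPM in 4T1 MKL1 and 119, 116 and 111 CPM in 4T1 control libraries. It rose 21.6-fold (log2 ratio 4.43, SE 0.032, adjusted p = 4.82e-31) and 3.65-fold (log2 ratio 1.87, SE 0.030, adjusted p = 3.65e-23). In LifeAct negative, low and high libraries it averaged 148 ± 9.61, 148 ± 2.48 and 169 ± 7.45 CPM, and high cells exceeded negative cells 1.14-fold (log2 ratio 0.19, SE 0.047, adjusted p = 0.000863).

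CSRP2 (chr12:76858709-76879023, minus strand) had 38.3, 42.7 and 39.4 CPM in LM2 caMKL1, 24, 20.7 and 19.5 CPM in LM2 MKL1 and 20.5, 19.9 and 21.0 CPM in LM2 control libraries. It rose 1.96-fold with caMKL1 (log2 ratio 0.97, SE 0.11, adjusted p = 7.96e-07), and MKL1 libraries overlapped the controls. In 4T1 the levels were 26.7 ± 1.25 CPM with caMKL1, 11.9 ± 0.818 with MKL1 and 10.8 ± 1.13 CPM in controls, a rise of 2.47-fold with caMKL1 (adjusted p = 2.17e-13) and a log2 ratio of 0.13 with MKL1 (adjusted p = 0.257). Of the 10 genes, CSRP2 and PDLIM4 were those that passed with caMKL1 and not with MKL1 in either line. In 4T1, however, Pdlim4 passed the filter on low counts only through caMKL1 libraries, so its pattern there was fixed and adds no support. LifeAct negative, low and high libraries averaged 22.3 ± 1.79, 18.2 ± 1.55 and 17.7 ± 0.540 CPM. CSRP2 fell by 0.29 in low (SE 0.084, adjusted p = 0.00516) and by 0.33 in high cells (SE 0.084, adjusted p = 0.000928).

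**Figure D2:**
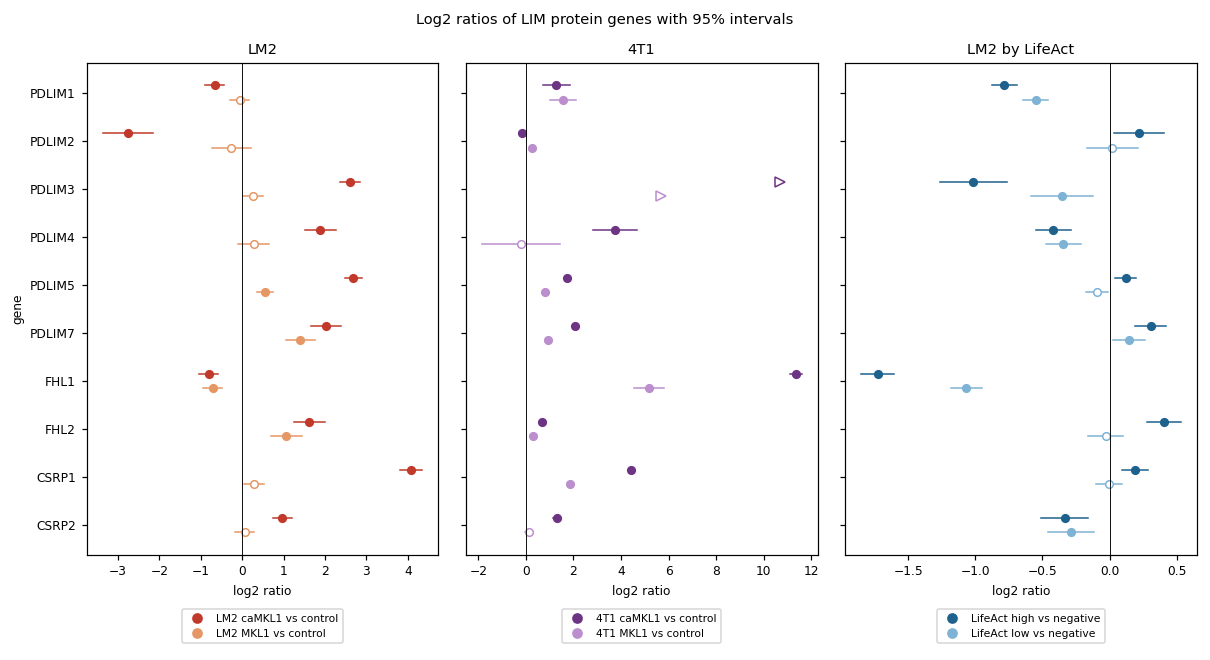
Log2 ratio of each gene with its 95% interval, for caMKL1 and MKL1 over control in LM2 and in 4T1 and for high and low over negative LifeAct; filled circles passed the test and open triangles are lower bounds. The axes differ between panels: CSRP1 is at 4.08 in LM2 caMKL1 and FHL1 at 11.36 in 4T1 caMKL1, while all LifeAct ratios lie between -1.73 and 0.41.

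Between the constructs, 7 genes were higher with caMKL1 than with MKL1 in LM2, 2 were lower (PDLIM1 and PDLIM2) and FHL1 did not pass, against 64.5% of all tested genes called. The widest gaps were those of CSRP1 (13.9-fold higher), PDLIM2 (5.68-fold lower), PDLIM3 (5.08-fold higher) and PDLIM5 (4.39-fold higher). PDLIM7 (1.54-fold, adjusted p = 0.00256) and FHL2 (1.47-fold, adjusted p = 0.00943) passed with narrower gaps, and with library totals in place of TMM scaling their adjusted p were 0.157 and 0.313. FHL2 also lost the call without caMKL1 replicate 1 (adjusted p = 0.0501) or MKL1 replicate 2 (adjusted p = 0.0606). In 4T1, 8 genes were higher with caMKL1 than with MKL1, 1 was lower (Pdlim2, fell by 0.46, SE 0.045) and Pdlim1 did not pass, against 66.6% called. Without Pdlim3, Pdlim4 and Fhl1, the higher genes were Pdlim5, Pdlim7, Fhl2, Csrp1 and Csrp2. MRTFA counts in 4T1 were lower in caMKL1 libraries (624 CPM) than in MKL1 libraries (2145 CPM). The construct sequences are not stated, so these counts cannot be compared as amounts of construct. Between high and low LifeAct, PDLIM5, PDLIM7, FHL2 and CSRP1 were higher in high cells, PDLIM1, PDLIM3 and FHL1 were lower, and PDLIM2, PDLIM4 and CSRP2 did not pass, against 50.3% called. The call of PDLIM7 there (log2 ratio 0.16, adjusted p = 0.0183) was lost without high replicate 1 (adjusted p = 0.138) or low replicate 1 or 3 (0.0551 and 0.0737), and with library totals (0.192).

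Responses in the lines were compared by a test of the 4T1 response minus the LM2 response, over genes matched by symbol in 18 libraries. With caMKL1 the responses of 7 of the 10 genes differed, 5 higher in 4T1 and 2 lower, against 60.3% of 13113 genes called (30.7% higher, 29.6% lower). Of the 5, PDLIM3, PDLIM4 and FHL1 passed the 4T1 filter only through libraries where they are high, and the other 7 genes gave 2 calls each way, a share near that of all genes. FHL1 had a log2 difference of 12.04 (SE 0.22, adjusted p = 4.78e-20), and its direction was opposite in the lines. PDLIM1 was opposite too (1.82, SE 0.25, adjusted p = 1.56e-06). PDLIM2 fell in both lines and fell further in LM2 (2.46, SE 0.23, adjusted p = 5.01e-09), and PDLIM4 rose further in 4T1 (1.72, SE 0.51, adjusted p = 0.0063). PDLIM5 and FHL2 rose further in LM2 (-1.09, SE 0.097, adjusted p = 2.95e-09, and -1.06, SE 0.19, adjusted p = 4.84e-05). For CSRP1 the difference was 0.22 (95% interval -0.01 to 0.46), for CSRP2 0.21 (-0.06 to 0.47) and for PDLIM7 -0.08 (-0.44 to 0.28). With library totals CSRP1 and CSRP2 were called (0.56 and 0.55, adjusted p = 0.00118 and 0.00161), 7 of the 10 genes were then higher and 2 lower, and PDLIM7 was at 0.25 (adjusted p = 0.321). TMM over all genes of each line called them too (0.35 and 0.33, adjusted p = 0.0149 and 0.0339). CSRP1 also passed without replicate 1 of both LM2 groups (0.26, adjusted p = 0.000907) and without any 1 LM2 MKL1 library, LM2 control replicate 1 or 4T1 control replicate 1, and CSRP2 without 4T1 control replicate 3 (0.35, adjusted p = 0.0307). PDLIM3 differed as well, but with no count in 4T1 controls its fitted difference depends on the prior count.

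With MKL1, 6 of the 10 differed between the lines, 5 higher in 4T1 and 1 lower, against 19.9% called (9.32% higher, 10.6% lower). Of the 5, PDLIM3 and FHL1 passed the 4T1 filter only through caMKL1 and MKL1 libraries. CSRP1 rose in 4T1 and did not pass in LM2 (difference 1.56, SE 0.12, adjusted p = 9.74e-09). FHL1 (5.85, SE 0.31, adjusted p = 9.49e-11) and PDLIM1 (1.60, SE 0.24, adjusted p = 8.67e-05) were also higher in 4T1, and FHL2 was lower (-0.77, SE 0.19, adjusted p = 0.0067). The difference of PDLIM2 (0.51, adjusted p = 0.0338) lost its call without LM2 MKL1 replicate 2, LM2 control replicate 1 or 3, 4T1 MKL1 replicate 2 or 4T1 control replicate 2 or 3, with an adjusted p of at most 0.0926. PDLIM7 did not pass (-0.48, adjusted p = 0.0551) but was called in 6 alternatives, among them without replicate 1 of both LM2 groups (-0.26, adjusted p = 0.0221). The lines differ in species, annotation and culture, and line and species cannot be told apart.

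**Figure D3:**
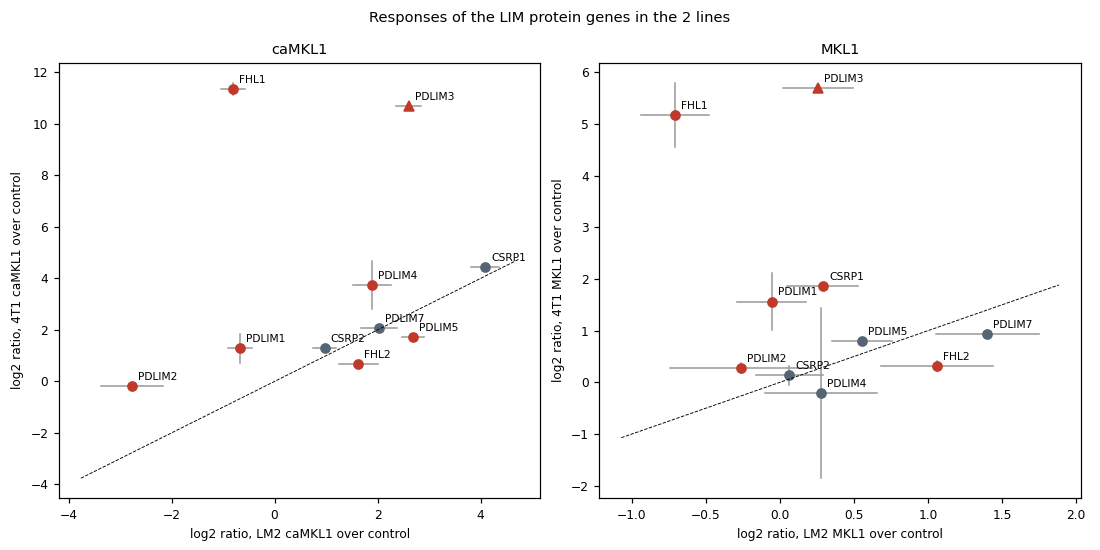
Response in 4T1 against response in LM2, as log2 ratios over control with 95% intervals, for caMKL1 (left) and MKL1 (right); red points differ between the lines by the test of the difference, triangles are lower bounds and the dashed line marks equal responses. FHL1 lies at -0.81 in LM2 and 11.36 in 4T1 with caMKL1, far above the line. Nearer to it with caMKL1 are CSRP1 (4.08 in LM2 and 4.43 in 4T1), CSRP2 (0.97 and 1.31) and PDLIM7 (2.03 and 2.07). Positions come from the fits within each line and colours from the joint fit of both lines. With TMM over all genes of each line, the caMKL1 differences of CSRP1 and CSRP2 were called.

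Compared per length, in RPKM over the summed exons of each gene, the make-up of the 10 genes shifted with caMKL1. In LM2 caMKL1 cells CSRP1 supplied 42% and PDLIM5 39.5% of the summed RPKM, against 12.2% and 30.1% in LM2 controls, and the sum was 355 RPKM with caMKL1, 91.9 with MKL1 and 72.1 in controls. PDLIM1 supplied 3.51% with caMKL1 and 27.5% in controls. In 4T1 Csrp1 supplied 78.1% with caMKL1, 55.5% with MKL1 and 33.2% in controls, where Fhl2 supplied 32.5%, and the sums were 1629, 386 and 177 RPKM. In LifeAct cells PDLIM1 led with 34.1% in negative, 28.4% in low and 23.9% in high cells, and the sums were 154, 126 and 127 RPKM. By CPM, which ignores length, PDLIM5 led in all 3 baseline groups. The exon length of CSRP1 is 10318 bases in the human and 1956 in the mouse annotation, so shares are not compared across species.

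**Figure D4:**
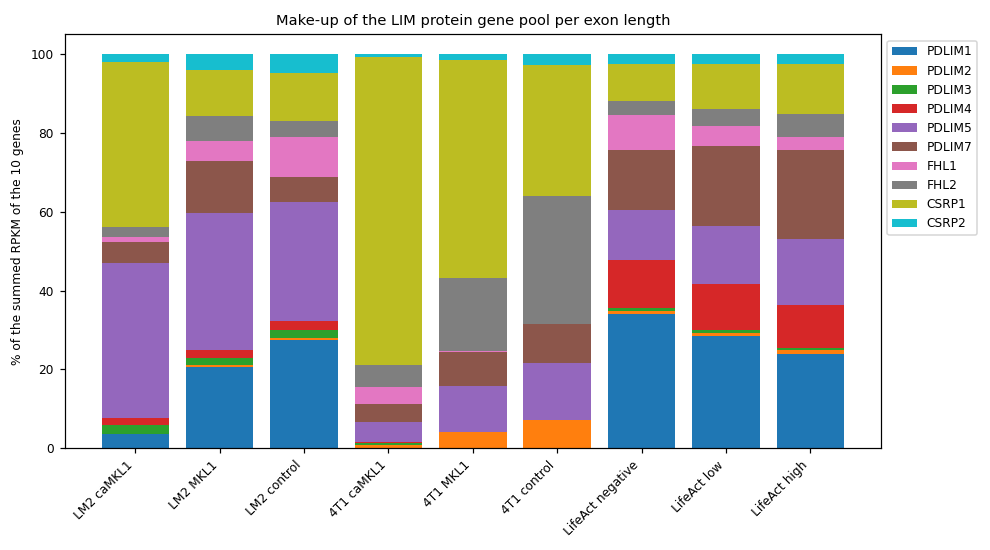
Share of each gene in the summed RPKM of the 10 genes, as stacked bars from 0 to 100% of group means (n = 3 libraries each). CSRP1 takes 78.1% in 4T1 caMKL1 and 42% in LM2 caMKL1 libraries, and in LifeAct cells the share of PDLIM1 is lower at each step.

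Over the 27 libraries, with log2 CPM centred within each experiment, CSRP1 and PDLIM5 were the most alike pair of the 10 (Pearson r = 0.96), and PDLIM2 and PDLIM5 the least alike (r = -0.84). These are descriptions, since libraries of a group share their treatment. Among 10254 other genes matched between the species, the pattern most like CSRP1 was that of SYNPO2 (r = 0.99), an actin-bundling protein of muscle. PDLIM5 was nearest to CAVIN2 (r = 0.99), a coat protein of caveolae. PDLIM7 was nearest to MYL6, a myosin light chain (r = 0.98). FHL1 was nearest to MYH11 (r = 0.98), PDLIM3 to MAP3K9 (r = 0.99), PDLIM4 to P4HA2, a collagen prolyl hydroxylase (r = 0.97), and CSRP2 to MAP3K13 (r = 0.97). PDLIM2 was nearest to PKP3, plakophilin of desmosomes (r = 0.97), PDLIM1 to BDH2 (r = 0.93) and FHL2 to KLHL21 (r = 0.94). FHL1 and MYH11 were near 0 in 4T1 controls (0.0975 and 0.241 CPM), against 263 and 187 CPM with caMKL1, and PDLIM3 had no count in those controls. In LM2, FHL1 fell from 43.2 CPM in controls to 24.6 with caMKL1, where MYH11 averaged 2.02 and 2.07 CPM. How far the 4T1 libraries alone set these r was not tested.

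The partners of these proteins are the alpha-actinins and palladin, a list of 5. In LM2 3 of the 5 were tested and all 3 rose with caMKL1, where 31.9% of all tested genes did, and 2 rose with MKL1, where 7.25% did. ACTN1, the alpha-actinin of stress fibres, averaged 1454 ± 91.9 CPM with caMKL1, 547 ± 66.0 with MKL1 and 275 ± 14.4 CPM in LM2 controls, log2 ratios of 2.40 and 0.99. ACTN4 rose by 0.94 and 0.39. In 4T1 4 of the 5 were tested, and ACTN1, ACTN4 and PALLD rose with both constructs, against 36.2% of all genes higher with caMKL1 and 19.3% with MKL1. The fourth, ACTN2, had no count in controls and was tested only through the caMKL1 libraries, so its rise there was fixed by the filter. ACTN1 had log2 ratios of 1.60 and 0.61 and ACTN4 of 0.97 and 0.43. In LifeAct high cells ACTN1 rose (log2 ratio 0.52), PALLD fell by 0.38 and ACTN4 did not pass (-0.06).

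Of 38 other cytoskeletal LIM genes, 35 were tested in LM2, where 19 rose and 11 fell with caMKL1, against 31.9% and 33% of all tested genes, and 8 rose and 2 fell with MKL1, against 7.25% and 4.74%. LDB3, also a PDZ-LIM protein of Z-discs, averaged 30.8 CPM with caMKL1, 1.78 with MKL1 and 0.064 CPM in LM2 controls. LDB3 and FHL5, the second named after its values were seen, had LM2 controls below the filter, were tested only through libraries where they are high and add no support to these counts. FBLIM1, which links filamin to adhesions, rose 10.2-fold with caMKL1 and 2.09-fold with MKL1, and ZYX, zyxin, 5.11-fold and 2.11-fold. TES, testin, rose 4.76-fold with caMKL1, and TGFB1I1, the adhesion protein Hic-5, 2.79-fold with MKL1. In 4T1 31 were tested, 17 rose and 12 fell with caMKL1, against 36.2% and 35.8% of all tested genes, and 15 rose and 4 fell with MKL1, against 19.3% and 15%. There FBLIM1 rose 4.81-fold and 2.23-fold, LPP, a relative of zyxin, 3.92-fold and 1.83-fold, and ZYX 1.69-fold and 1.80-fold. LDB3 averaged 40.6 CPM with caMKL1, 9.31 with MKL1 and 0.358 CPM in 4T1 controls, and LIMS2, the adhesion protein PINCH2, 66.9, 5.5 and 0.215 CPM. Both had 4T1 controls below the filter, as had FHL5, LIMCH1, MICAL1 and LMCD1, named after their values were seen, and these 6 genes add no support to the 4T1 counts. In LifeAct cells 34 were tested, with 11 higher and 16 lower in high cells, against 36% and 35.2% of all tested genes, and 11 higher and 15 lower in low cells, against 26% and 23.6%. There FBLIM1 fell by 1.53 in high and 0.92 in low cells on the log2 scale and LIMA1, which bundles actin, rose by 1.53 and 0.39. AJUBA rose by 0.99 in high cells, TGFB1I1 fell by 0.81 in low cells, and ZYX fell by 0.24 in low cells and did not pass in high cells (0.07). The median of the list was -0.09 in LifeAct high cells, where that of all tested genes was -0.03.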

How the data were processed

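TRIzol RNA was read in pairs of 150 bases on a HiSeq instrument, per the labels' protocols. The deposited tables hold, for each gene name, counts of read pairs that the authors made with featureCounts v2.0.1 from STAR alignments, with Ensembl 103 (GRCh38) or 102 (GRCm38), per the file headers. The sources used here give no STAR version. No strand option is shown, so reads of CSRP1, FHL2 and PDLIM3 cannot be told from those of antisense genes that overlap their exons, and PDLIM2 and mouse Pdlim7 overlap a gene on their own strand. The submitters' processing notes also name DESeq2. The number of value columns without a sample was 0.

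Counts were filtered (edgeR 4.0.16 filterByExpr, minimum count 10), scaled by TMM and fitted per experiment by edgeR's quasi-likelihood method in R 4.3.3, with 1 mean per group and a prior count of 0.125, and p-values were adjusted by Benjamini-Hochberg. The difference between lines was an interaction over symbols shared by the human and mouse tables. A group without counts was set at 3 counts for a lower bound. RPKM used the deposited exon lengths. The fit was tested on simulated data, and of 100 genes changed by 1 on the log2 scale it recovered 93 in the LM2 MKL1 comparison (18372 genes), 95 in 4T1 MKL1 (15915 genes) and 89 in LifeAct low (21175 genes). False calls made up 3.98%, 7.58% and 3.08% of the calls.

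All 10 genes are reported. Of the other LIM genes and partners, those named have the 3 smallest p of a comparison with control, plus ACTN1, ACTN4 and ZYX, and the gene most like each of the 10 is the one with the highest Pearson r. The genes, lists and motifs were chosen with earlier results of these data known. Alternatives were DESeq2 1.42.0, limma voom (limma 3.58.1), other scalings, no filter, the 6 libraries of a comparison alone, a replicate block and leaving out libraries.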

Additional observations from a re-analysis of the deposited data

Results flagged for a closer look

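The responses of the genes below differed between the 2 lines by the test of the difference, as 4T1 minus LM2 on the log2 scale. Of 13113 matched genes, 60.3% were called in this test with caMKL1 and 19.9% with MKL1, and the 2 comparisons share controls. With caMKL1 the differences were 1.82 for PDLIM1, 2.46 for PDLIM2, 10.74 for PDLIM3, 1.72 for PDLIM4, -1.09 for PDLIM5, 12.04 for FHL1 and -1.06 for FHL2. With MKL1 they were 1.60 for PDLIM1, 0.51 for PDLIM2, 8.20 for PDLIM3, 5.85 for FHL1, -0.77 for FHL2 and 1.56 for CSRP1. The values of PDLIM3 rest on 4T1 controls without counts, depend on the prior count and are no bounds. FHL1 rests on 8 control counts in 4T1 and PDLIM4 on 7. PDLIM3, PDLIM4 and FHL1 passed the 4T1 filter only through libraries where they are high, and they add no support. Species, annotation and line cannot be told apart in these differences.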

How the results depend on the processing

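Of 1490 alternative values of genes that passed the test, 1462 kept direction and call, 28 lost the call and 0 reversed. These include the 4T1 values of Pdlim3, Pdlim4 and Fhl1, which passed the filter only through libraries where they are high. Among ratios that had not passed, 30 alternative values gained a call. Counts of calls among the 10 genes stayed within 1.5 times of the main count in every alternative. In the LM2 MKL1 comparison all called genes numbered 2265, and 1106 to 2688 without 1 library, the lowest 3 being those without a control (1266, 1243 and 1106), which leaves 2 controls. The main fits did not use the replicate numbers as pairs. Same-numbered pairs of libraries correlated above 0.1 in 4 of 9 cases in LM2 (r up to 0.398), 4 of 9 in 4T1 and 0 of 9 in LifeAct. In these experiments 8, 4 and 0 of 9 libraries correlated best with their own number. Whether same-numbered LM2 libraries share a batch was not tested, and the main LM2 fit leaves such sharing out. With the replicate block, calls in the LM2 MKL1 comparison numbered 3258 over all genes and 4 among the 10, and with the block within each line 7 among the 10 for the MKL1 difference between lines.

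Library totals in place of TMM moved the median of all genes to -0.46 in LM2 caMKL1, -0.38 in LM2 caMKL1 against MKL1, -0.21 in 4T1 caMKL1, -0.13 in 4T1 caMKL1 against MKL1, -0.11 in LifeAct high against low and 0.37 in the caMKL1 difference. The share of higher among called genes was then 42.5% (60.4% with TMM) in LM2 MKL1, 30.9% (49.1%) in LM2 caMKL1, 33.9% (50.5%) in LM2 caMKL1 against MKL1, 37.5% (56.2%) in 4T1 MKL1, 37.4% (50.3%) in 4T1 caMKL1, 40.4% (50.7%) in 4T1 caMKL1 against MKL1, 42% (53%) in LifeAct high against low and 67.8% (50.9%) in the caMKL1 difference. Among the 10 genes it gave 5 higher and 3 lower in LM2 caMKL1 against MKL1, 3 and 4 in LifeAct high against low, 4 and 5 in LifeAct high against negative and 7 and 2 in the caMKL1 difference (5 and 2 with TMM).

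Reversals concerned only ratios that had not passed. Under library totals they were CSRP2 in LM2 MKL1 (-0.012), FHL2 (0.017) and CSRP1 (0.045) in LifeAct low, and PDLIM7 in the caMKL1 difference (0.25, or 0.046 with TMM over all genes of each line). CSRP1 in LifeAct low was 0.0079 without the filter and 0.017 in the 6 libraries compared. Without replicate 1 of both LM2 groups, CSRP2 in LM2 MKL1 was -0.030 and PDLIM7 in the caMKL1 difference 0.051. Leaving out 1 library gave -0.14 to 0.068 for PDLIM1 and -0.028 to 0.13 for CSRP2 in LM2 MKL1, -0.89 to 0.43 for PDLIM4 in 4T1 MKL1, -0.026 to 0.062 for PDLIM2, -0.058 to 0.011 for FHL2 and -0.033 to 0.047 for CSRP1 in LifeAct low, -0.11 to 0.0099 for CSRP2 in LifeAct high against low, -1.17 to 0.14 for PDLIM4 in the MKL1 difference and -0.13 to 0.051 for PDLIM7 in the caMKL1 difference. The causes were not tested.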
